A study of Drosophila melanogaster with 2 samples.

Results

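The 10 genes described here, wg, hh, ptc, ci, arm, nkd, en, inv, gsb and slp1, belong to the segment polarity class of Drosophila melanogaster and were chosen by name, out of 13945 protein-coding genes on the 6 chromosome arms covered. For each, all peaks of Mes4 tagged with green fluorescent protein (GFP) were collected whose summit lay in the gene body or within 10 kb of it. Chromatin came from whole embryos of mixed sex, 0 to 16 h old, of a transgenic line that stably expresses Mes4 with GFP at its C terminus, and was precipitated with an antibody against GFP. Mes4, listed in RefSeq under the symbol PolE4, encodes a histone-fold protein. The only group consists of biological replicates 3 and 4 of this line, each from pooled male and female animals. No untagged line and no other antibody was analysed here, and the lists hold no expression values, so the tissue label could not be checked against marker genes. Many segment polarity genes, though not all, are active in some cells of each segment and silent in the others. In chromatin of whole embryos a strong peak in few cells cannot be told apart from a weak peak in many.

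Segment polarity genes divide each segment of the embryo into an anterior and a posterior part. Cells at the rear of each segment make the transcription factors Engrailed and Invected and secrete Hedgehog. Their anterior neighbours receive it through Patched, which releases Smoothened and with it the transcription factor Cubitus interruptus, and secrete Wingless. Wingless acts back through Armadillo, the fly beta-catenin, while Naked cuticle damps the response. Gooseberry and Sloppy paired 1 are transcription factors that help to keep wg active.

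The strongest sites lay in the windows of slp1, nkd, ptc and wg. The sequences around 5 of these summits are printed because they hold the strongest site, the strongest nkd site, both peaks at a member's own start and the only shown peak with a match to the site of Pangolin, the DNA-binding partner of Armadillo. They are from the Release 6 RefSeq genome (dm6), read 5′ to 3′ on the strand of the named gene, reach 100 bp to each side of the summit, and stop before the transcribed sequence at nkd. They are slp1 far downstream (chr2L:3832427-3832627, plus strand), slp1 near downstream (chr2L:3827829-3828029, plus strand), wg start (chr2L:7306935-7307135, plus strand), nkd start (chr3L:19045450-19045622, minus strand) and nkd intron (chr3L:19024935-19025135, minus strand). Capitals mark matches on either strand to the motifs searched: GGTCACACT in the first, TTCGAA at the nkd start, and in the second slp1 window a Pangolin, a GATA and a TTCGAA match that adjoin.
slp1 far downstream: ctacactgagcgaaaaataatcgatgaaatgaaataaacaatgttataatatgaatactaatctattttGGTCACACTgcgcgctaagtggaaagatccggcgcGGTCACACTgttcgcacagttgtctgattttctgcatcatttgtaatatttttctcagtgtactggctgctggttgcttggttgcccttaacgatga
slp1 near downstream: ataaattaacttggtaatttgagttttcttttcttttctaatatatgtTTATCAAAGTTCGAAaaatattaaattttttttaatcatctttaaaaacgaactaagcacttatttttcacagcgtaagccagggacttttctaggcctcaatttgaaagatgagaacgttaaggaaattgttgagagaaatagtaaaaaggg
wg start: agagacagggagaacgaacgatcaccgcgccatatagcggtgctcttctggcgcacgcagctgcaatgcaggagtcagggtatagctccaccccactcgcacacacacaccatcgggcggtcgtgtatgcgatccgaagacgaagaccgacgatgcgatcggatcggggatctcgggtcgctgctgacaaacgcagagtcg
nkd start: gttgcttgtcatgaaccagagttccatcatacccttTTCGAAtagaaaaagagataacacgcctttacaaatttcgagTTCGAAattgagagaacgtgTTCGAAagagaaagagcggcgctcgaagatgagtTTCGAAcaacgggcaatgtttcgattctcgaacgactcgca
nkd intron: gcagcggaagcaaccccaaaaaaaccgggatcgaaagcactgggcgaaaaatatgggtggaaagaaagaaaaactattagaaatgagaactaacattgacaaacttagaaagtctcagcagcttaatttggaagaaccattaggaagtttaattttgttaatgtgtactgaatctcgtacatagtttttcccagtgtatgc

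An optimal peak was called in the windows of slp1, nkd, ptc, wg and inv, and none in those of hh, ci, arm, en and gsb. The optimal list is what the authors kept by irreproducible discovery rate (IDR), which weighs how peaks rank in replicates, and holds 3207 peaks, the same as the 3207 strongest of the 30000 relaxed peaks that the authors called on both replicates together. An optimal summit lay in the gene body or within 10 kb for 5 of the 10 genes, slp1, nkd, ptc, wg and inv (50%, 95% Wilson interval 23.7 to 76.3), against 52% of all protein-coding genes. The share is close to that background. The distance from a gene's nearest start to the nearest optimal summit had a median of 7.43 kb for the 10 genes, against 10.9 kb for all. At 20 kb, 9 of the 10 genes had one, against 67.9% of all genes. At one of their own transcription start sites (TSSs, within 500 bp) 2 had one, nkd and wg (20%, Wilson interval 5.67 to 51.0), against 15.1% of all genes. Inside the gene body 2 had one, nkd and ptc, against 9.63%. Of the 5 genes with a peak in the window, 3 had none at a start, ptc, inv and slp1 (60%), against 71% of all genes with a peak in the window. Intervals cover only the counting of genes. Since members were chosen by name with results of these data known, the shares are set beside the background without a test.

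The windows were long, and window length moves this share. The gene bodies had a median of 9.29 kb, against 2.17 kb for all protein-coding genes. Of the 3 members under 5 kb (en, gsb and slp1) 1 had an optimal peak in its window, against 48.4% of all genes of that length. Of the 5 members of 5 to 20 kb (wg, hh, ptc, ci and arm) 2 had one, against 62.7%. Both members of 20 kb or more (inv and nkd) had one, against 62.7%.

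**Figure D1:**
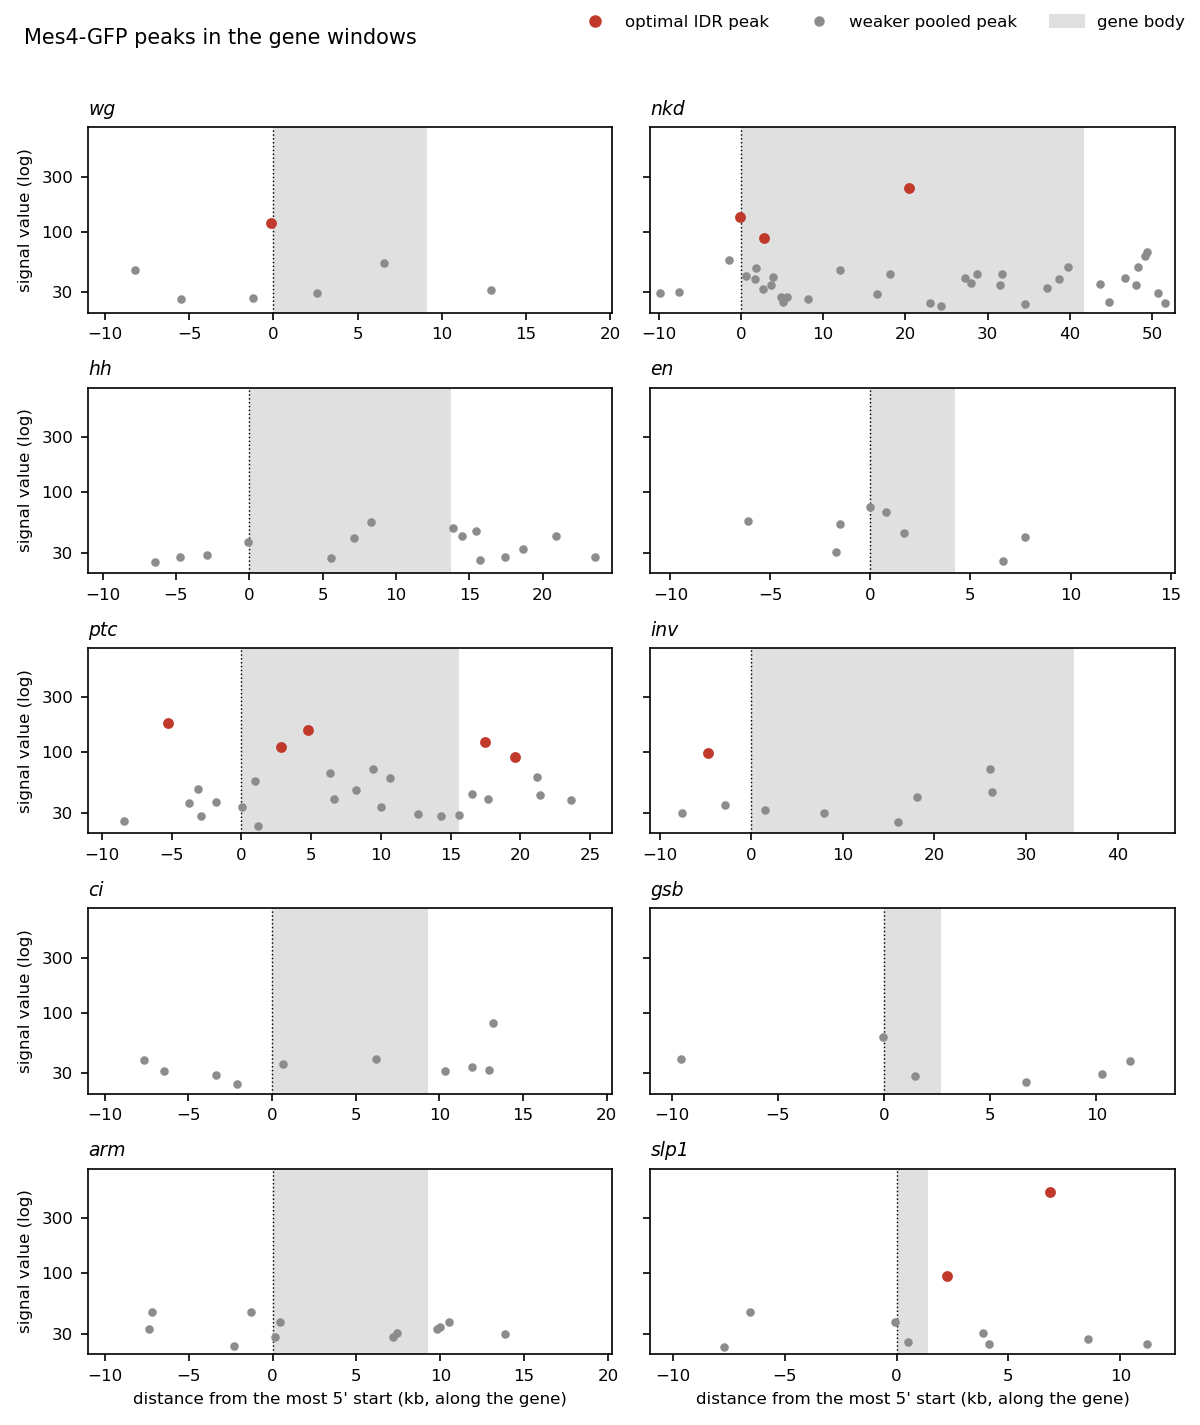
Each panel is 1 gene, with the distance of every pooled peak summit from the gene's most 5′ start on the x axis (kb, along the direction of transcription) and the authors' signal value on the y axis (log scale). Red points are optimal IDR peaks, grey points weaker pooled peaks, and grey shading the gene body. Optimal peaks sit at the starts of wg and nkd, and nkd has 2 more inside its gene body, among them its strongest. Those of ptc, inv and slp1 lie away from these genes' own starts. The panels of hh, ci, arm, en and gsb hold grey points only.

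The windows held 12 optimal peaks, and most of them lay away from any start. There were 6 in introns, 4 in intergenic sequence and 2 at promoters (within 500 bp of a TSS), whereas of all 3207 optimal peaks 32.0% lay in introns, 11.8% in intergenic sequence and 53.7% at promoters. Those shares are not matched to gene windows of this length. The ptc window alone gave 5 of the 12 and that of nkd 3, so the peaks do not stand for 12 genes. For 6 of the 12 the nearest start of any gene was that of a member. The authors' signal value, whose scale is not stated, ranks peaks within 1 list only. In the optimal list it ran from 85.5 to 1678, with a median of 127.

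The ligand genes came out differently. wg, which encodes the Wnt ligand Wingless (2L, 7307159 to 7316265, plus strand), had 1 optimal peak (7306827 to 7307242), with its summit 124 bp upstream of the only annotated start. Its signal was 118, at rank 1823 of the pooled list. The peak had a signal of 73.3 and rank 1765 in replicate 3, and a signal of 39.7 and rank 2775 in replicate 4, so it stood among the 3207 strongest peaks in each. The next peaks of the wg window ranked 7001, in an intron 6548 bp downstream of the start, and 8814, 8184 bp upstream of it, neither in the optimal list. hh, which encodes the ligand Hedgehog (3R, 23128169 to 23141906, minus strand), had no optimal peak in its window. Its strongest pooled peak, in an intron 8315 bp downstream of the start, ranked 6520 (signal 55.5). The next lay at the starts of the neighbouring genes CG31457 (rank 8104) and CG31365 (rank 9089). The nearest optimal summit was 29.0 kb away, at the start of Cow (rank 3082).

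The window of ptc held more optimal peaks than that of any other of the 10 genes, but some lay in the neighbouring gene Acsl. In the gene body alone, ptc and nkd had 2 each. ptc encodes the Hedgehog receptor, which Hedgehog signalling itself induces (2R, 8649649 to 8665223, plus strand). Its window held 5, none within 500 bp of its start. The strongest lay in intergenic sequence 5263 bp upstream (8644178 to 8644593), at rank 890 with a signal of 180, and at ranks 721 in replicate 3 and 1178 in replicate 4. Another pair lay in the first of the 5 introns of ptc. One of these was 4747 bp downstream of the start (8654188 to 8654603), at pooled rank 1121, with rank 791 in replicate 3 and 2264 in replicate 4. Its nearest start of any gene was that of the long noncoding RNA CR44281, 2900 bp away. The other was 2830 bp downstream (8652271 to 8652686), at pooled rank 2072, with rank 2783 in replicate 3 and 1526 in replicate 4, and its nearest start was that of the long noncoding RNA CR44281, 983 bp away.

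The other 2 peaks of the ptc window lay in introns of Acsl, the next gene downstream, which encodes an acyl-CoA synthetase. Their pooled ranks were 1695 (8666931 to 8667346) and 2940 (8669014 to 8669429). The stronger of them ranked 1506 in replicate 3 and 2420 in replicate 4. The weaker ranked 2202 in replicate 3 and 6809 in replicate 4, outside the strongest 3207 there. The start of ptc itself had only a weak pooled peak, 11 bp from the TSS at rank 15808, and none in the relaxed list of replicate 4.

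The transducers of the signals, ci and arm, had no optimal peak. ci encodes the transcription factor that Hedgehog signalling controls (chromosome 4, 47710 to 57041, minus strand). The strongest peak of its window lay at the start of its neighbour PlexB, just outside the optimal list at rank 3501 (signal 81.1). That peak ranked 6090 in replicate 3 and 2356 in replicate 4, so it would stand inside by replicate 4 alone. The start of ci had a peak at rank 13740 (signal 36.2). An optimal peak at the start of RpS3A, a ribosomal protein gene, lay 10.2 kb upstream of the nearest ci start at rank 346 and so just missed the window. arm encodes beta-catenin (X, 1891401 to 1900646, minus strand). In its window the strongest pooled peaks lay at the starts of Ldaf1 (rank 8841), Edem1 (rank 8845) and mRpL16 (rank 12684), and only then at its own (rank 12810, signal 37.6). The replicates differed in this order. In replicate 3 the start of Ldaf1 led (rank 6408) and the best peak at an arm start ranked 13260. In replicate 4 an arm start held the strongest peak of the window (rank 7868). The nearest optimal summit to arm was 19.8 kb away, at the start of CG14818.

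nkd, a feedback inhibitor of Wingless signalling (3L, 19003741 to 19045449, minus strand), had 3 optimal peaks. The strongest lay in the first intron, 20414 bp downstream of the start (19024827 to 19025242), at rank 530 with a signal of 238. It ranked 555 in replicate 3 and 521 in replicate 4, and the summits there were 1 bp from the pooled summit in each. Its nearest start of any gene was that of the long noncoding RNA CR45940, 8865 bp away. The peak at the start (19045314 to 19045729) had its summit 73 bp upstream, with rank 1471 and a signal of 135, and ranked 1477 in replicate 3 and 1552 in replicate 4. The last lay in the same intron 2862 bp downstream of the start (19042379 to 19042794), at rank 3028, and was uneven between replicates, with rank 2716 in replicate 3 and 4963 in replicate 4. With these 3 included, the nkd window held 39 relaxed pooled peaks in 61.7 kb, or 6.32 per 10 kb. The ptc window was denser, at 7.59 per 10 kb.

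The strongest peak of all 10 windows lay between slp1 and its paralogue slp2, both of which encode forkhead transcription factors. slp1 is short (2L, 3825675 to 3827099, plus strand). The peak (3832357 to 3832650) was intergenic, 6852 bp downstream of the start of slp1 and 4313 bp upstream of that of slp2, so that slp2 is the nearer start. It had a signal of 503 and rank 92 in the pooled list, with rank 85 (signal 309) in replicate 3 and rank 107 (signal 193) in replicate 4. It was also narrower than the other 11 peaks, at 294 bp, where those were 416 bp wide. A weaker peak 2254 bp downstream of the start of slp1 (3827721 to 3828136) had a pooled rank of 2705, a rank of 1828 in replicate 3 and a rank of 8654 in replicate 4. Without replicate 3 it would therefore not be among the strongest 3207. At the start of slp1 the pooled peak ranked only 12524.

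The remaining transcription factor genes, en, inv and gsb, had a single optimal peak among them. en and inv are neighbouring paralogues (2R, en 11524006 to 11528210, minus strand, and inv 11474465 to 11509695, plus strand). The peak of inv was intergenic, 4695 bp upstream of its nearest start (11469562 to 11469977), at rank 2531 with a signal of 98.8. It ranked 4074 in replicate 3 and 2001 in replicate 4. At the start of inv the pooled peak ranked 17222. en had no optimal peak in its window, but had one 13.0 kb upstream of its start (11541024 to 11541439, rank 2753, with rank 2833 in replicate 3 and 2937 in replicate 4), to which en is the nearest gene. At the start of en, 36 bp upstream, a peak below the optimal list ranked 4014 (signal 74.8), with 7883 in replicate 3 and 3246 in replicate 4. gsb (2R, 25061964 to 25064643, plus strand) had its strongest peak at its own start, 52 bp upstream, at rank 5545 (signal 61.3). That peak ranked 5643 in replicate 3 and 10739 in replicate 4, and the nearest optimal summit to gsb was 23.6 kb away.

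**Figure D2:**
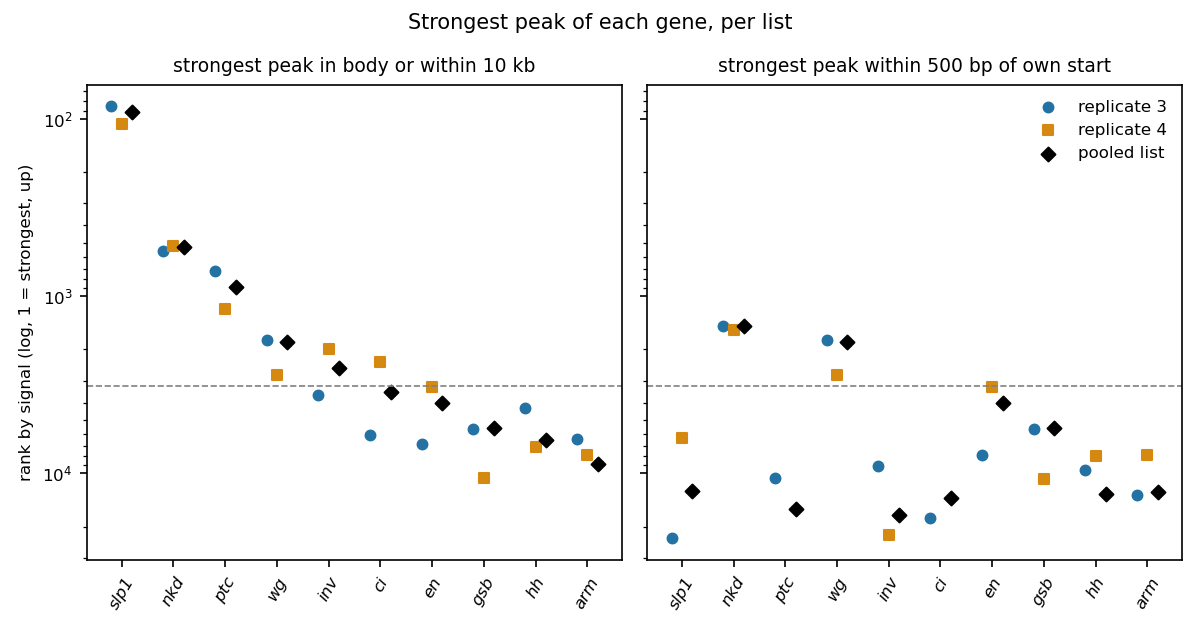
The y axis gives the rank by signal (log scale, strongest at the top) of each gene's strongest peak in its window (left) and within 500 bp of one of its own starts (right), in replicate 3 (circles), replicate 4 (squares) and the pooled list (diamonds); no point means no peak. The dashed line is rank 3207, the end of the optimal list. In the left panel slp1, nkd, ptc and wg lie above the line in every list, and in the right panel only nkd and wg do.

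Ordered by the strongest pooled peak in the window, the genes ran slp1 (rank 92), nkd (530), ptc (890), wg (1823), inv (2531), ci (3501), en (4014), gsb (5545), hh (6520) and arm (8841). The steps from slp1 to nkd, from nkd to ptc and from ptc to wg held in each replicate. From wg on the order was not stable. The strongest peak of any kind in the window ranked 1765 for wg and 3633 for inv in replicate 3, and 2775 for wg and 2001 for inv in replicate 4, so their order turned round. The inv peaks were different sites, in an intron in replicate 3 and in intergenic sequence in replicate 4. Likewise ci ranked 6090 in replicate 3 and 2356 in replicate 4, both at the start of PlexB. For hh the sites differed again. The rank was 4257 in replicate 3, at the start of CG31365, and 7130 in replicate 4, in an intron.

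All 12 optimal peaks were found in the relaxed list of each replicate within 200 bp. This says little about the members. The optimal peaks were called on these same replicates together, each relaxed list holds 30000 peaks, and the share over all optimal peaks was not computed. Among the 3207 strongest of both replicates were 8 of the 12 (66.7%), against 2385 of all 3207 optimal peaks (74.4%). No interval is given for this share, because several of the 12 peaks lie in the same window. With its own 3207 strongest peaks, replicate 3 alone placed one in the windows of 4 members (slp1, nkd, ptc and wg), against 52.2% of all genes. Replicate 4 alone placed one in those of 6, with inv and ci added, also against 52.2%. At a start, each replicate alone gave nkd and wg, 2 of 10, against 14.9% of all genes in replicate 3 and 14.7% in replicate 4. Both replicates were called against a shared control, and its part in their agreement was not tested.

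**Figure D3:**
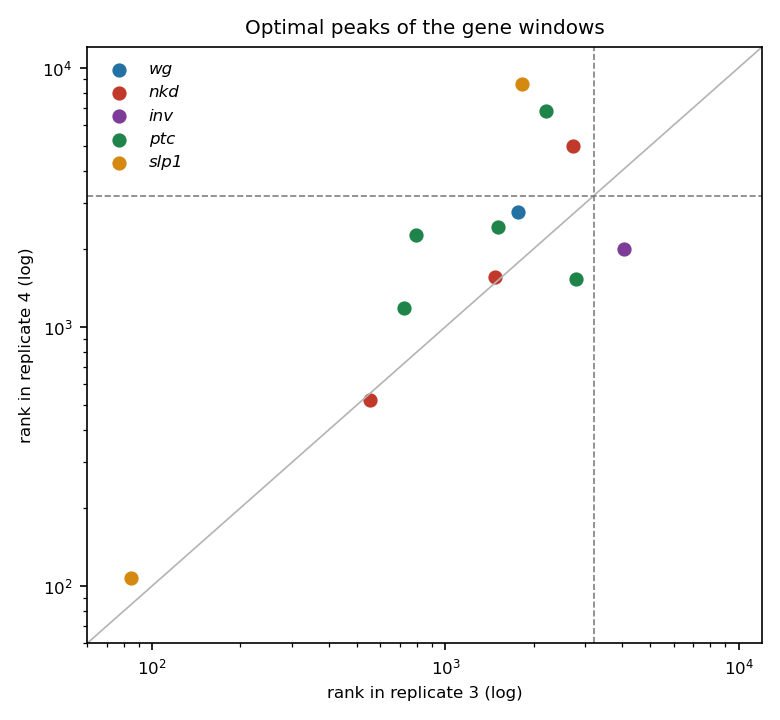
Each point is 1 of the 12 optimal peaks of the windows, with its rank in replicate 3 on the x axis and in replicate 4 on the y axis (both log scale); colours mark the gene and dashed lines rank 3207. The strongest points of slp1 (85 and 107) and nkd (555 and 521) lie near the diagonal. The weaker slp1 point (1828 and 8654) and the weakest nkd point (2716 and 4963) lie off it. In all, 4 peaks fall outside the strongest 3207 of a replicate.

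Every member had at least a weak peak at a start. In the pooled relaxed list 10 of the 10 genes had a summit within 500 bp of one of their TSSs (Wilson interval 72.2 to 100), against 54.6% of all protein-coding genes. The ranks of the members' start peaks ran from 1471 at nkd to 17222 at inv. The high share was not particular to the members. In the related lists described below, 9 of 10 other segment polarity genes had such a summit. So did 27 of 30 Wingless and 18 of 20 Hedgehog pathway genes, 90% in each list. In the relaxed list of replicate 3 the count was again 10, against 54.9%, and in that of replicate 4 it was 8, without ptc and ci, against 50.8%. The whole windows held 6 to 39 relaxed pooled peaks, and all 10 held at least 1, against 92.2% of all genes. Per 10 kb of window the members had a median of 3.75 relaxed peaks, and all protein-coding genes one of 3.18. By their label the relaxed lists include background as well as peaks. The deposited −log10 q-value of the start peaks was 3.89, the maximum of the list, at wg and nkd, 3.43 at en, 2.08 at gsb, and 0.359 to 0.610 at the other 6.

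Genes of the same pathways were described from lists of other segment polarity genes and of the Wingless and Hedgehog pathways. Of 30 Wingless pathway genes, 12 had an optimal peak at a start (40%, Wilson interval 24.6 to 57.7) and 24 in the window (80%), against the 15.1% and 52% of all genes given above. Replicate 3 alone gave 10 at a start and replicate 4 alone 11. The strongest were gish, a casein kinase (rank 21, with 19 in replicate 3 and 24 in replicate 4), gro, the Groucho corepressor (rank 154, with 133 and 195), sgg, the fly GSK3 kinase (rank 170, with 177 and 175), and wls, which carries Wingless to the cell surface (rank 1189). The summit at wls is nearer to the start of Adck5, and for 3 of the 12 genes another gene had the nearer start. Of 20 Hedgehog pathway genes, 6 had an optimal peak at a start (30%, 14.5 to 51.9) and 11 in the window (55%). At a start replicate 3 alone gave 6 and replicate 4 alone 5. These were led by sgg, rdx, an adaptor in the turnover of Ci (rank 349), ttv, a heparan sulfate polymerase that Hedgehog spread requires (rank 1626), and smo, the signal transducer (rank 2267, with the start of CG17078 nearer). The lists share 3 genes. Their gene bodies had medians of 11.7 kb for the Wingless and 6.65 kb for the Hedgehog pathway, also longer than the 2.17 kb of all genes.

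The list of other segment polarity genes holds 10 (gsb-n, slp2, mid, H15, lin, rho, Ser, drm, sob and oc). It was drawn up here and is broader than that class, since oc is a gene of head patterning. None of the 10 had an optimal peak at a start, 0 of 10 (upper Wilson bound 27.8%), against 15.1% of all genes. In the window 7 had one (70%, Wilson interval 39.7 to 89.2), against 52% of all genes. Replicate 3 alone gave 0 at a start and 7 in the window. Replicate 4 alone gave 1 at a start, oc (rank 3195), a head-patterning homeobox gene named here after its value was seen, and 8 in the window. The pooled rank of that oc peak was 3512, below the end of the optimal list. The list includes slp2, whose window holds the same rank 92 peak as that of slp1.

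**Figure D4:**
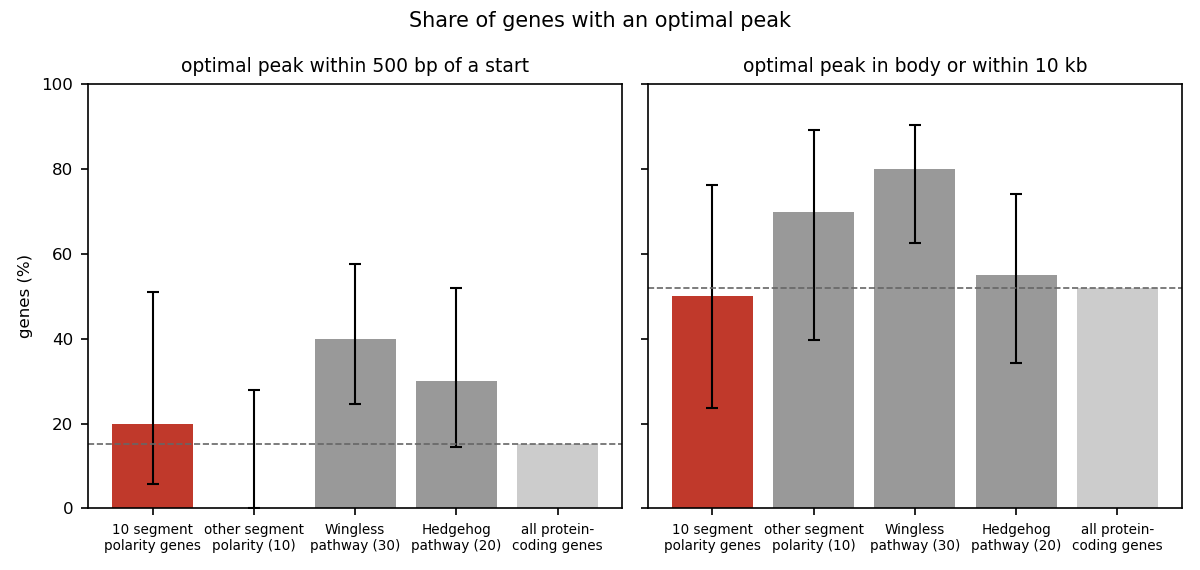
Bars give the share of genes (%) with an optimal peak within 500 bp of a start (left) and in the gene body or within 10 kb (right) for the 10 members, the 3 other lists and all protein-coding genes; error bars are 95% Wilson intervals, which cover only the counting of genes, and the dashed line marks all protein-coding genes. The members' bars, at 20% and 50%, have intervals that span the dashed lines at 15.1% and 52%.

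The sequence under the 12 peaks varied. GC content within 100 bp of the summit ran from 27.4% at the weaker slp1 peak to 60.2% at the wg start, with a median of 38.5%, against a median of 37.3% over all optimal summits. Short motifs were searched on both strands in that window and in the promoter, from 250 bp upstream to 50 bp downstream of the most 5′ TSS. The DNA replication-related element TATCGATA, a site of many housekeeping promoters, was at none of the 12 summits and in none of the 10 promoters, against 4.55% of all optimal summits and 9.37% of all promoters. The GAGA repeat GAGAGAG was in the promoters of en, ptc and gsb, 3 of 10, against 5.87% of all promoters, and at none of the 12 summits, against 4.96% of all. The Zelda site CAGGTAG was in the promoter of slp1 only among the 10, against 1.64% of all promoters, and at none of the 12 summits, against 0.904%.

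Letters of the sites of both pathways' transcription factors, Pangolin and Ci, were searched as well. The core CTTTGAT of the Pangolin site lay at 2 of the 12 summits, the ptc intron peak of rank 1121 and the slp1 peak of rank 2705, against 2.96% of all summits, and in the promoter of inv, against 5.05% of all promoters. At both summits the window also held a GATA match (TGATAA), which in the slp1 window overlaps the Pangolin match on the same strand, as the capitals in the sequence above show. GATA matches were at 3 of the 12 summits, against 17.0% of all, and in none of the 10 promoters, against 22.8% of all. The Ci site GACCACCCA was at none of the 12 and in none of the 10 promoters, against 0.0935% of all summits and 0.108% of all promoters, a background at which 12 summits and 10 promoters show nothing either way. A match is a run of letters, not a site shown to be used.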

How the data were processed

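Per the deposited readme files, the authors made a relaxed peak list for each replicate, a relaxed list on pooled alignments, each against a shared control, and the optimal IDR list. Neither aligner, peak caller nor IDR threshold is given in the sources used here, and depth is unknown. Both replicates come from 1 transgenic line. The deposited lists give a signal value per peak, used for ranking, and a −log10 q-value, at its maximum in all 3207 optimal peaks. Chromatin was sheared to 200 to 800 bp, per the labels. The dm6 lists were used without conversion. The dm3 copies were not used here. Genes are those of Ensembl release 115; the coordinates of all 10 members equal those in RefSeq, and the 6 arms are longer than the last peak end. Coordinates are 1-based.

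A peak was placed by its summit. Locations were classed as promoter (within 500 bp of any TSS), UTR, exon, intron or intergenic, in this order. Peaks of different lists were matched by summits within 200 bp. The members and lists were chosen with earlier results of these data known. All 10 members are named, whatever their values. Of each pathway list at most the 4 genes with the strongest optimal peak at a start are named. The list of other segment polarity genes is printed whole, and oc was singled out from it after its value was seen. Other genes are named as neighbours of peaks, and genes that share a start cannot be told apart. The letters GGTCACACT and TTCGAA were searched after the printed windows had been read. No p-value was computed: there is 1 group, and genes and peaks are not replicates. Placement was tested on simulated data. Python 3.11.15, pandas 2.3.3 and statsmodels 0.14.6 were used.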

Additional observations from a re-analysis of the deposited data

How the results depend on the processing

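The count of members with an optimal peak in the window depended on its length, from 2 in the gene body alone to 5 within 10 kb and 9 within 20 kb. The 12 peaks became 4 in the gene body and 19 within 20 kb. With the stronger 1603 optimal peaks, 3 members had a peak in the window, the windows held 5 peaks, and 1 member had one at a start. Of the 4 members whose strongest peak was among the strongest 3207 of both replicates, 2 were counted in the gene body alone, and 7 members were counted within 20 kb. Leaving out a replicate gave 4 to 6 members with a peak in the window, 10 to 11 peaks, 2 members with a peak at a start, and 8 to 10 with a relaxed one there. TSS distances of 250 and 1000 bp, placing peaks by any base, and matching within 100 or 500 bp kept every count they apply to within 1.5 times. Of 36 recomputed counts 9 moved by more. Taking starts of protein-coding genes only does not enter counts made from the members' own starts. For the peaks nearest to a member's start, where it does and where it was added after seeing the data, it gave 9 of 12, against 6 with all starts. Of 29 recomputed ranks of a member's strongest optimal peak 3 moved by more than 1 SD between replicates: wg ranked 2775 without replicate 3, nkd 555 without replicate 4, and at a flank of 5 kb the strongest slp1 peak was that of rank 2705. That SD rests on the same replicate ranks, so it flags small moves where replicates are close and passes larger ones where they differ. For inv no rank without replicate 4 was counted, as its strongest peak in replicate 3 (rank 3633) lay outside the strongest 3207. No paired analysis was possible because there is 1 group. Depth is unknown, so the lack of an optimal peak at hh, ci, arm, en and gsb says only that none passed the authors' procedure.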

Other observations

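Reading the printed windows led to 2 further letter runs, which were therefore chosen after their presence was seen. The window of the strongest slp1 peak holds GGTCACACT, the core of the promoter element called Motif 1, in 2 copies on the same strand. At least 1 copy lay at 71 of the 3207 optimal summits (2.21%) and in 6.05% of all promoters, but 2 copies at 1 optimal summit only (0.0312%), this one, which is 4313 bp from the nearest TSS. The window of the nkd start peak holds the palindrome TTCGAA in 4 copies. At least 1 copy was at 7.80% of optimal summits and in 12.9% of all promoters, and 4 copies at 1 optimal summit only, that of nkd. These are descriptions of the windows, with no test.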
